A study of Mus musculus with 12 samples.

Results

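The 83 genes described here encode nuclear components of the mitochondrial oxidative phosphorylation system, and they were measured in fully grown mouse oocytes that lacked one or both of Ring1 and Rnf2. They were chosen by name, as the genes whose symbol in the array's annotation begins with Ndufa, Ndufb, Ndufc, Ndufs, Ndufv, Sdh, Uqcr, Cox4, Cox5, Cox6, Cox7, Cox8 or Atp5. The rule uses names and no measured value, but the set was picked with earlier results of these data known. Of 86 such symbols, 83 had a probe set that named a single gene, among 21519 genes tested. The other 3, Atp5g1, Atp5l and Ndufs5, were represented only by probe sets that named several genes and were left out. Complex I contributed 36 genes, complex II 4, complex III 7, complex IV 20 and complex V 13. The remaining 3, Atp5s, Atp5sl and Cox4nb, are now called Dmac2l, Dmac2 and Emc8 and encode no subunit, although Dmac2 is known as a factor that assembles complex I. By role, 77 of the 83 are subunits, and Ndufaf1, Ndufaf2 and Cox7a2l are assembly factors.

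Oxidative phosphorylation is the pathway by which mitochondria turn the oxidation of fuel into ATP. Complexes I and II pass electrons from NADH and succinate to ubiquinone, complex III passes them on to cytochrome c, complex IV hands them to oxygen, and complex V uses the resulting proton gradient to make ATP. Most subunits are encoded in the nucleus and imported, while a few membrane subunits are encoded by mitochondrial DNA. The mouse oocyte holds a large store of mitochondria and meets its energy demand mainly by oxidising pyruvate through this pathway, with little use of glucose.

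The oocytes were at the germinal vesicle stage, halted before the first meiotic division. They came from females of 5 to 10 weeks, of a strain described as mixed 129/Sv and C57BL/6J, taken 46 h after 5 U of PMSG (a gonadotropin that drives follicle growth) into medium with 2.5 μM milrinone, which holds oocytes in meiotic arrest. All 4 genotypes carried Rnf2F/F, the floxed Rnf2 alleles. The control was Ring1+/+Rnf2F/F, the Ring1 mutant Ring1-/-Rnf2F/F, the Rnf2 mutant Ring1+/+Rnf2F/FZp3-cre and the double mutant Ring1-/-Rnf2F/FZp3-cre. Ring1 was therefore absent in every cell of its mutants, whereas Rnf2 was deleted only by the Zp3 promoter's Cre, which acts in growing oocytes. Ring1 and Rnf2 are the alternative E3 ligases of Polycomb repressive complex 1, which marks histone H2A with ubiquitin and keeps genes silent. Each genotype was measured on 3 arrays, each from a pool of 50 oocytes of several mice. The sources used here do not say whether pools shared mice, and p-values then measure only how these pools differ from each other.

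Values are log2 intensities as the authors deposited them, and a log2 difference of 1 is a 2-fold change. A gene was called when its adjusted p in limma, over all 21519 genes, was below 0.05, and errors of differences are standard errors of that fit with 3 arrays per genotype. Rnf2 read 8.33, 8.44 and 8.23 in the controls, 8.43, 8.53 and 8.43 in the Ring1 mutants, 5.60, 5.93 and 6.04 in the Rnf2 mutants, and 5.90, 5.68 and 6.01 in the double mutants, so the genotypes with Cre lay apart from those without. Ring1 lay between 3.50 and 3.99 in all 12 arrays, close to the floor of 3.82, the 95th percentile of the olfactory receptor genes, and therefore does not check its labels. The mean of 12 oocyte markers, all above the floor, was 10.92 to 10.99 in the controls and 10.82 to 10.86 in the double mutants, with 1 called higher and 3 lower. The mean of 14 granulosa and cumulus cell markers was 4.73 to 4.95 in the controls and 4.52 to 4.96 in the double mutants, with 1 called higher and 1 lower. The mean of 7 blood and immune cell markers was 3.93 to 3.98 in the controls and 4.21 to 4.27 in the double mutants, where C1qb, H2-Aa and Cd68 were called higher and the leukocyte marker Ptprc was not, with a log2 difference of -0.03. The mean of 5 theca and luteal markers was 3.91 to 5.04 in the controls and 3.32 to 4.41 in the double mutants, and that of 8 stroma and endothelium markers 4.94 to 5.04 and 4.70 to 4.87. Only 8 of the 14 granulosa and cumulus markers and 3 of the 7 blood and immune markers lay above the floor. The same held for 3 of the 5 theca and luteal and 5 of the 8 stroma and endothelium markers. The part of other cells in the results was not tested.

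Transcripts of these genes changed in both directions in the double mutant, and none was called in either single mutant. Against control, 5 of the 83 genes rose and 28 fell, or 6.02% and 33.7%. Over all genes, 14.5% were called higher and 17.5% lower. Of the 83 genes, 70 lay in the brightest 25% of all genes. Among those 5380 genes, 12.7% were called higher and 37.6% lower, so the share of these genes that fell was near that of other abundant transcripts. The median difference was -0.10 for the 83 genes, -0.04 for all genes and -0.11 for the brightest 25%. An array reports relative abundance, so a fall of these transcripts and a rise of the oocyte's other RNA cannot be told apart. Under all 4 scalings of the arrays that were tried, 13 genes were lower and 3 were higher. Of all genes, at most 10.8% can be lower and 10.4% higher under all 4, the smallest shares in any scaling. The joint share was counted neither for all genes nor for the brightest 25%, so these counts are not read as particular to the 83 genes. Most changes were small. Of the 83 genes, 1, Cox8c, was called and changed by 2-fold or more, against 3.85% of all genes, while 5 fell by at least 0.5 on the log2 scale and 23 by less.

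**Figure D1:**
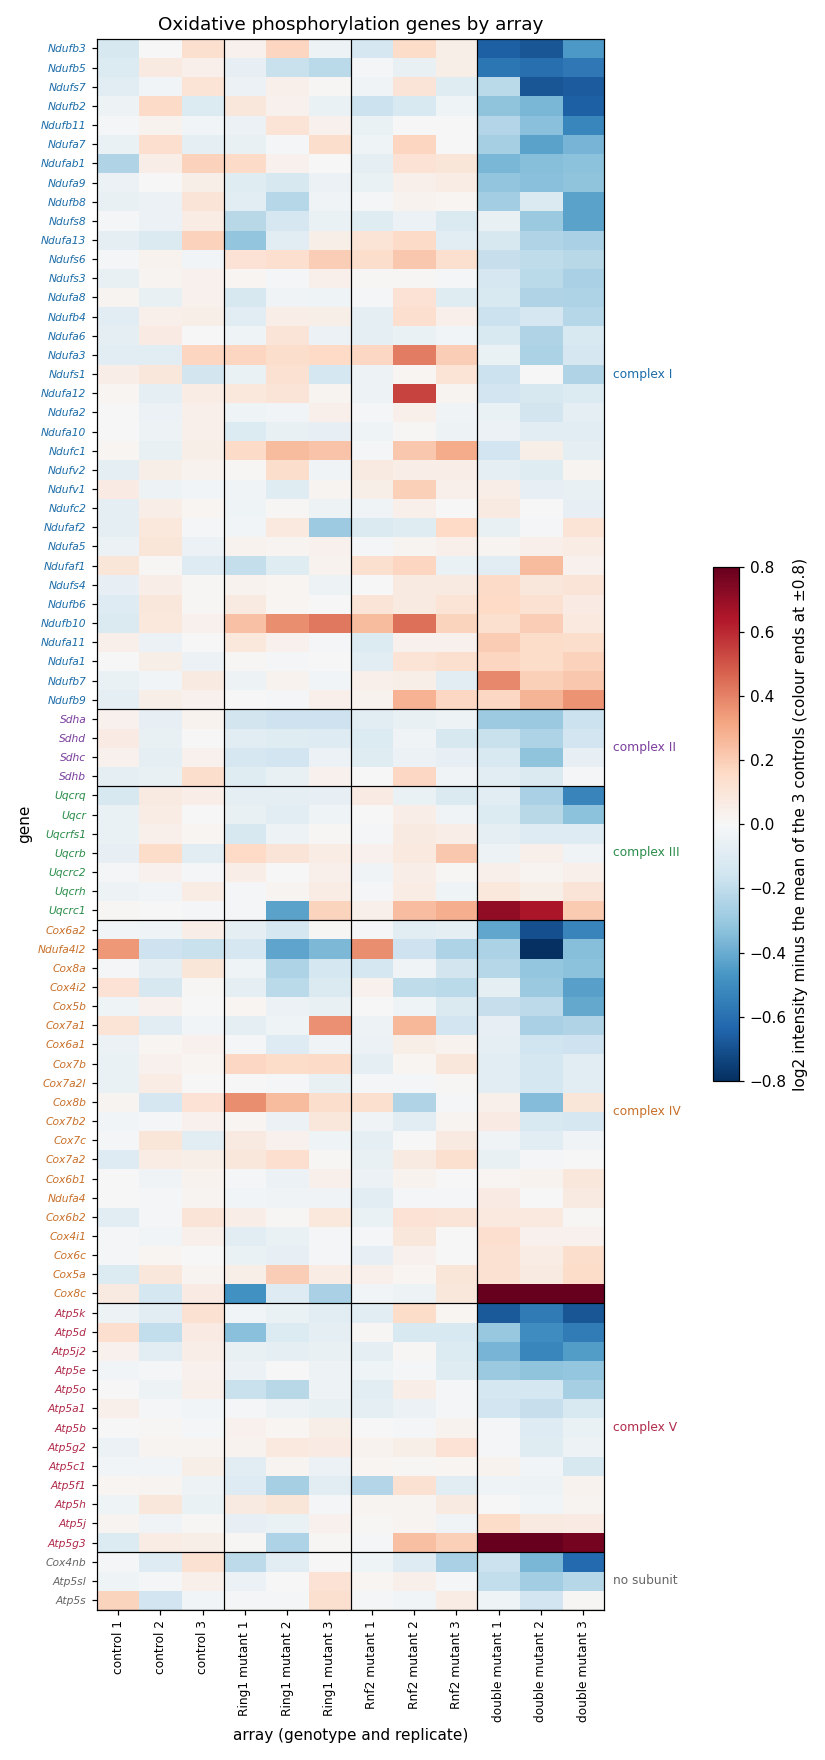
Log2 intensity of oxidative phosphorylation genes (rows, by complex and ordered by the double mutant's difference) in each of the 12 arrays (columns, by genotype), minus the mean of the 3 controls; the colour ends at ±0.8. Cox8c and Atp5g3 stand out as higher, and a block of complex I and complex V genes as lower, in all 3 double-mutant arrays.

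The direction of the set as a whole depended on the scaling. With quantile normalization, 14 of the 83 genes were called higher and 17 lower, against 14.9% and 18.6% of all genes. With each array centred on its brightest 25%, 18 were higher and 13 lower, against 22.0% and 10.8% of all genes. With each array centred on the median of all genes, 3 were higher and 45 lower, against 10.4% and 34.7%. The median of all genes moved by -0.04 as deposited, -0.04 after quantile normalization, 0.07 when centred on the brightest 25% and -0.16 when centred on the median. No gene that fell in the deposited values was called higher under another scaling. When a change beyond 1.2-fold was required (limma's treat), 2 genes were higher and 4 lower, against 6.71% and 5.13% of all genes. The 2 were Cox8c and Atp5g3 and the 4 were Ndufb3, Ndufb5, Cox6a2 and Atp5k. Deviations from the group mean correlated weakly, at 0.10 to 0.26, in same-numbered control and double-mutant arrays, and the main fit did not use replicate numbers. With the replicate number as a block in all 12 arrays, 5 genes were higher and 26 lower. The calls of Ndufa8, Ndufs8, Uqcrq and Atp5a1 were then lost (adjusted p 0.0505 to 0.0754, limma). With the block and only these 2 genotypes in the fit, 4 were higher and 17 lower, against 13.4% and 14.9% of all genes. In that fit 13 calls were lost: those 4 genes, Ndufb7, Ndufb8, Ndufs3, Ndufs6, Sdhd, Uqcr, Cox5b, Atp5sl and Cox4nb (adjusted p 0.0505 to 0.162, limma). The same 2 genotypes without the block gave 5 and 20. Shares of all genes are not given for that fit or for the block in all 12 arrays. The lost calls are therefore not read as particular to the 83 genes.

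**Figure D2:**
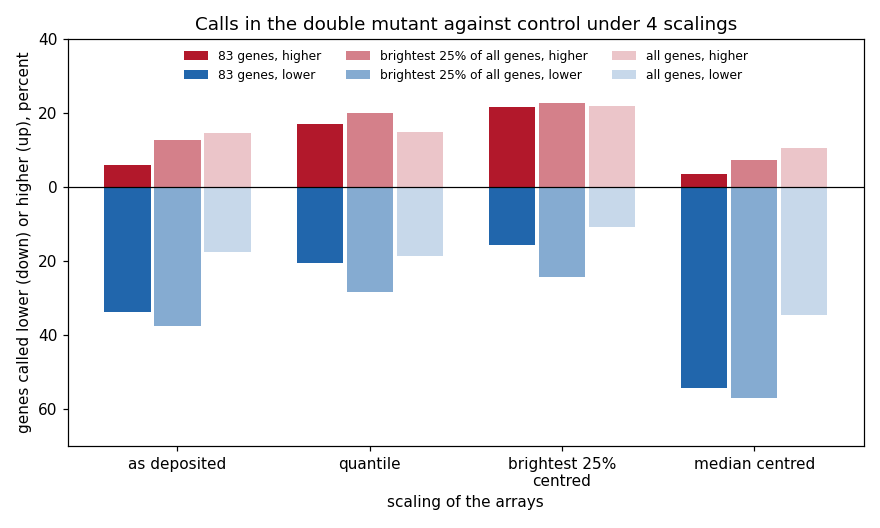
Share of genes called higher (upward bars) or lower (downward bars) in the double mutant against control, in percent, under 4 scalings of the arrays, for the 83 genes, for the brightest 25% of all genes and for all genes. The balance of the 83 genes runs from 3 higher and 45 lower to 18 higher and 13 lower, and moves with that of the brightest 25%.

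**Figure D3:**
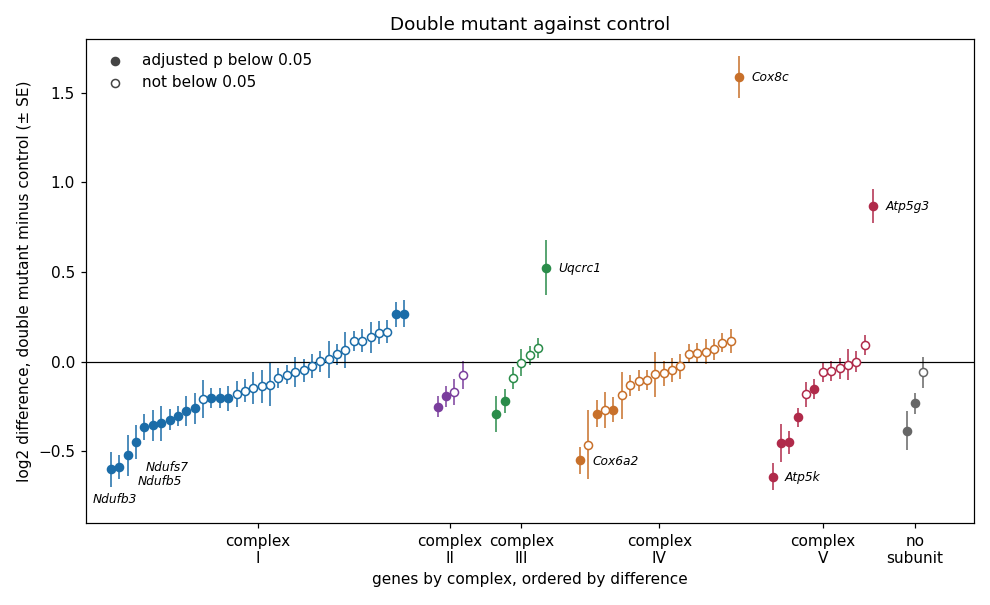
Log2 difference between double mutant and control (vertical axis, ± SE, 3 arrays each) for each gene, grouped by complex and ordered by size; filled points had an adjusted p below 0.05. Complexes I to V each hold called and uncalled genes, and Cox8c at 1.59 and Atp5g3 at 0.87 lie above all others.

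Complex I, the NADH dehydrogenase, fell in 14 of its 36 genes (38.9%) and rose in 2, beside the 37.6% of the brightest 25% of genes and 17.5% of all genes that fell. Its median difference was -0.14. The counts of higher and lower genes in complex I became 7 and 9 with quantile normalization, 7 and 8 when centred on the brightest 25% and 0 and 20 when centred on the median of all genes. All 7 core subunits, which carry the flavin, the iron-sulfur clusters and the quinone site, had a difference below 0 as deposited, as did 3651 of the 5380 genes in the brightest 25%, and among those that fell were Ndufs7, Ndufs8 and Ndufs3. The core subunits of the NADH-binding end that were measured, Ndufs1, Ndufv1 and Ndufv2, were not called, at -0.14, -0.02 and -0.05. With quantile normalization or centring on the brightest 25%, Ndufv1 and Ndufv2 lay above 0, which left 5 of the 7 below. Grouped by position in the enzyme, 4 of the 5 genes of the quinone-binding Q module fell, and 2 of 10 on the list of the NADH-oxidising N module, which also holds Ndufv3, not one of the 83. With quantile normalization or centring on the brightest 25%, 2 genes of the Q module were lower, and 1 of the N module was lower and 1 higher. Centred on the median of all genes, 4 of the Q and 5 of the N module were lower, so both counts moved with the scaling.

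Ndufs7, the core subunit that holds the last iron-sulfur cluster before ubiquinone, read 8.37, 8.44 and 8.57 in the controls and 8.25, 7.77 and 7.79 in the double mutants. The Ring1 mutants lay between 8.41 and 8.50 and the Rnf2 mutants between 8.36 and 8.56. All 3 double-mutant arrays lay below all 9 others, with replicate 1 much closer to them. The difference from control was -0.52 ± 0.11 (limma adjusted p = 0.00334). The call held under all 4 scalings. Ndufs3 fell by 0.20 and Ndufs8 by 0.26, and neither call held under quantile normalization (adjusted p = 0.152 and 0.0536, limma). Without control replicate 3, Ndufs3 was no longer called (adjusted p = 0.0541), nor without double-mutant replicate 3 (adjusted p = 0.0586, limma). Ndufs8 kept its call in only 1 of the 6 fits that left out a control or a double-mutant array.

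Among the accessory subunits of the membrane arm, which the Ndufb symbols name, 5 of 10 fell and 2 rose. Of the brightest 25% of genes, 37.6% fell and 12.7% rose. Ndufb3 read 7.81, 7.94 and 8.07 in the controls, 7.97, 8.11 and 7.90 in the Ring1 mutants, 7.80, 8.08 and 7.99 in the Rnf2 mutants and 7.28, 7.25 and 7.48 in the double mutants. The first 3 genotypes overlapped and the double mutants lay below all of them. Ndufb3 fell by 0.60 ± 0.10 against control, a 1.52-fold change (limma adjusted p = 0.000414). Ndufb5 read 8.70, 8.88 and 8.85 in the controls and 8.23, 8.21 and 8.24 in the double mutants. The double mutants lay close together, below the Ring1 mutants (8.60 to 8.74) and the Rnf2 mutants (8.75 to 8.86), and the fall was 0.59 ± 0.07 (limma adjusted p = 2.49e-05). Ndufb2 fell by 0.45, Ndufb11 by 0.36 and Ndufb8 by 0.27. The calls of Ndufb3, Ndufb5, Ndufb2 and Ndufb11 held under all 4 scalings, while that of Ndufb8 did not hold under quantile normalization (adjusted p = 0.138, limma). It was also lost without control replicate 3 or double-mutant replicate 1 or 3 (adjusted p 0.0617 to 0.11, limma).

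The rises in complex I were Ndufb7 and Ndufb9, also membrane-arm subunits. Ndufb7 read 9.70, 9.73 and 9.82 in the controls and 10.13, 9.94 and 9.97 in the double mutants, which lay above all 9 other arrays. Its difference was 0.26 ± 0.07 (limma adjusted p = 0.0115). Ndufb9 read 7.52, 7.65 and 7.64 in the controls, 7.63, 7.88 and 7.77 in the Rnf2 mutants and 7.77, 7.88 and 7.96 in the double mutants. The double mutants overlapped the Rnf2 mutants, and the difference from control was 0.27 ± 0.08 (limma adjusted p = 0.0172). Neither rise was called after centring on the median of all genes (adjusted p = 0.15 and 0.169, limma). Without double-mutant replicate 1 the adjusted p of Ndufb7 was 0.0514. Without control replicate 1 or double-mutant replicate 3 that of Ndufb9 was 0.071 or 0.0702 (limma).

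The other falls of complex I were small. Ndufa9, an accessory subunit next to the quinone site, read 10.13, 10.18 and 10.22 in the controls and 9.86, 9.85 and 9.86 in the double mutants, a fall of 0.32 ± 0.06 (limma adjusted p = 0.000788). The double mutants lay close together and below all other arrays. Ndufa7 fell by 0.36, and both held under all 4 scalings. Ndufab1, the mitochondrial acyl carrier protein, fell by 0.34, a call lost without control replicate 2 or 3 (adjusted p = 0.0593 and 0.0752, limma) and when centred on the brightest 25% (adjusted p = 0.0985). Ndufs6 fell by 0.20, and so did Ndufa8, whose call was lost without control replicate 1 or 3 or double-mutant replicate 2 or 3 (adjusted p 0.11 to 0.12, limma). The calls of Ndufs6 and Ndufa8 did not hold under quantile normalization. The highest-mean genes of complex I, Ndufa2 and Ndufa1, were not called, at -0.09 and 0.17. The assembly factors Ndufaf1 and Ndufaf2 were not called either, at 0.07 and 0.01. Ndufaf1 had a mean of 3.25, below the floor, where a change would be compressed.

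Complex II, succinate dehydrogenase, is also an enzyme of the tricarboxylic acid cycle and has no subunit encoded by mitochondrial DNA. Of its 4 genes, 2 fell and all differences lay below 0, where 37.6% of the brightest 25% of genes fell. Sdha, the flavoprotein that oxidises succinate, read 9.46, 9.36 and 9.45 in the controls, 9.28, 9.26 and 9.25 in the Ring1 mutants, 9.34, 9.36 and 9.38 in the Rnf2 mutants and 9.13, 9.13 and 9.25 in the double mutants. Controls and double mutants did not overlap, and the Ring1 mutants lay between them. The difference was -0.25 ± 0.06 against control (limma adjusted p = 0.00512), -0.09 against the Ring1 mutant (adjusted p = 0.277) and -0.19 against the Rnf2 mutant (adjusted p = 0.0263). Sdhd, a membrane anchor, fell by 0.19 (limma adjusted p = 0.024), while the anchor Sdhc at -0.17 and the iron-sulfur subunit Sdhb at -0.07 were not called. Centred on the brightest 25%, neither Sdha nor Sdhd was called (adjusted p = 0.0984 and 0.334, limma). The call of Sdhd was also lost without control replicate 1 or 3 or double-mutant replicate 2 (adjusted p 0.0562 to 0.0931, limma).

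Complex III, the cytochrome bc1 complex, had 1 rise and 2 falls among 7 genes. Among the brightest 25% of genes, 12.7% rose and 37.6% fell. Uqcrc1, a core protein on the matrix side, read 5.28, 5.28 and 5.26 in the controls, 5.27, 4.85 and 5.45 in the Ring1 mutants, 5.32, 5.52 and 5.57 in the Rnf2 mutants and 5.99, 5.93 and 5.49 in the double mutants. Double-mutant replicate 3 lay within the range of the Rnf2 mutants, while the other two lay above all other arrays. The difference was 0.52 ± 0.15 (limma adjusted p = 0.0192), which held under all 4 scalings. It was not called without control replicate 3 (adjusted p = 0.0501), double-mutant replicate 1 (0.0789) or double-mutant replicate 2 (0.0707, limma). Against the Rnf2 mutant the difference was 0.33 ± 0.15 and not called (limma adjusted p = 0.131). The small subunits Uqcrq and Uqcr (now Uqcr11) fell by 0.29 and 0.22, and neither was called under quantile normalization (adjusted p = 0.146 and 0.218, limma). Without control replicate 2 or 3 or double-mutant replicate 2 or 3, Uqcrq reached an adjusted p of 0.0707 to 0.163 and Uqcr of 0.0534 to 0.0972 (limma). The hinge protein Uqcrh, among the highest-mean genes of the complex, was not called at 0.08.

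Complex IV, cytochrome c oxidase, holds several subunits that exist as ubiquitous and tissue-restricted isoforms, and its largest changes were in restricted ones. Of its 20 genes, 1 rose and 3 fell (15.0%), where 12.7% of the brightest 25% of genes rose and 37.6% fell. Not all 20 lie in that brightest 25%, Cox8c among them. The counts became 3 and 3 with quantile normalization, and 6 and 1 when centred on the brightest 25%. Centred on the median of all genes, further genes were called lower, among them Cox6a1 and Cox7b. Cox8c, an isoform of subunit 8 known from testis and encoded on chromosome 12, read 5.32, 5.10 and 5.31 in the controls, 4.76, 5.14 and 4.98 in the Ring1 mutants, 5.22, 5.20 and 5.34 in the Rnf2 mutants and 6.86, 6.61 and 7.03 in the double mutants. The double mutants lay more than 1 log2 unit above all 9 other arrays. The difference from control was 1.59 ± 0.12, or 3.01-fold (limma adjusted p = 5.9e-07), and it lay between 1.46 and 1.70 under the alternatives. Cox6a2, the heart and skeletal muscle isoform of subunit 6a, encoded on chromosome 7, read 8.31, 8.30 and 8.39 in the controls, 8.26, 8.19 and 8.34 in the Ring1 mutants, 8.31, 8.24 and 8.25 in the Rnf2 mutants and 7.91, 7.63 and 7.80 in the double mutants. It moved the other way from Cox8c, with all double mutants below all other arrays. The fall was 0.55 ± 0.08 against control (limma adjusted p = 0.000127), with values from -0.68 to -0.44 under the alternatives.

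The other 6 tissue-restricted isoforms were not called in any comparison. Cox6b2, a testis isoform, gave 9.48 to 9.66 in the controls and 9.57 to 9.64 in the double mutants. Cox4i2, a lung isoform, differed by -0.27 (limma adjusted p = 0.0649), and Cox7a1, a heart and muscle isoform, by -0.19. Ndufa4l2, a hypoxia-induced relative of Ndufa4 (a complex IV subunit despite its name), differed by -0.46 with a wide SE of 0.19 (limma adjusted p = 0.0885). The mean of Ndufa4l2 was 3.89 over all arrays and 3.62 in the double mutants, beside the floor of 3.82. Cox8b and Cox7b2, isoforms of muscle and testis, lay below the floor at 3.06 and 2.27, where a change would be compressed. Cox4i2 and Ndufa4l2 were called lower under quantile normalization (adjusted p = 0.00847 and 0.0351, limma). Centred on the median of all genes, both were called lower (adjusted p = 0.00668 and 0.0156, limma), as was Cox7b2 (adjusted p = 0.0437).

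Among the ubiquitous subunits of complex IV, Cox8a and Cox5b fell. Cox8a, the widespread counterpart of Cox8c, read 9.84, 9.77 and 9.95 in the controls and 9.62, 9.54 and 9.52 in the double mutants, which did not overlap. Its fall of 0.29 ± 0.07 (limma adjusted p = 0.0086) and that of Cox5b, 0.27 (adjusted p = 0.00971), were not called under quantile normalization (adjusted p = 0.071 and 0.0718, limma). Cox6a1, the widespread counterpart of Cox6a2, was not called at -0.13 (limma adjusted p = 0.114), nor was Cox6c at 0.11 (adjusted p = 0.172). The supercomplex assembly factor Cox7a2l was not called at -0.10.

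**Figure D4:**
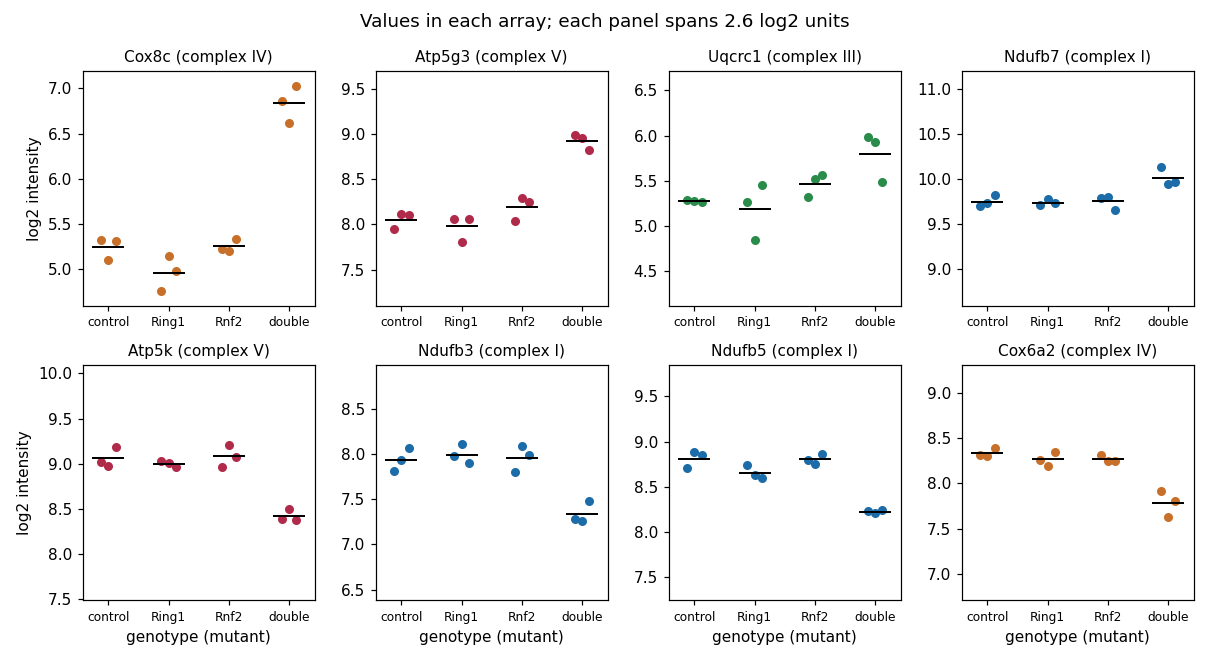
Log2 intensity of 8 genes in each of the 12 arrays (points) by genotype, with the mean of the 3 arrays as a line; each panel spans the same number of log2 units. The double mutants lie above the other genotypes for Cox8c, Atp5g3 and Ndufb7 and below them for Atp5k, Ndufb3, Ndufb5 and Cox6a2, while 1 double-mutant array of Uqcrc1 overlaps the Rnf2 mutants.

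Complex V, the ATP synthase, had 1 rise and 5 falls among 13 genes, in different parts of the machine. Among the brightest 25% of genes, 12.7% rose and 37.6% fell. Atp5g3, on chromosome 2, is one of a set of genes for the membrane ring of c subunits through which protons pass, and these genes share the mature protein. It read 7.95, 8.12 and 8.10 in the controls, 8.06, 7.81 and 8.06 in the Ring1 mutants, 8.04, 8.29 and 8.25 in the Rnf2 mutants and 8.99, 8.96 and 8.82 in the double mutants. The double mutants lay apart from the rest, which overlapped one another. Atp5g3 rose by 0.87 ± 0.09, or 1.83-fold (limma adjusted p = 1.6e-05). Its paralog Atp5g2 was not called, at -0.05 ± 0.06 (limma adjusted p = 0.551), with 11.71 to 11.78 in the controls and 11.65 to 11.74 in the double mutants. The other probe sets of Atp5g2 gave -0.32 and -0.03. The third gene of the ring, Atp5g1, was among those left out.

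The falls in complex V were largest for small subunits. Atp5k, subunit e, sits at the interface of ATP synthase dimers and is encoded on chromosome 5. It read 9.02, 8.98 and 9.18 in the controls, 9.04, 9.01 and 8.97 in the Ring1 mutants, 8.97, 9.21 and 9.08 in the Rnf2 mutants and 8.39, 8.50 and 8.37 in the double mutants. No double-mutant array overlapped another genotype, and Atp5k fell by 0.64 ± 0.08, or 1.56-fold (limma adjusted p = 3.91e-05). Atp5j2, subunit f of the same membrane part, read 10.63, 10.51 and 10.65 in the controls and 10.22, 10.07 and 10.15 in the double mutants. It fell by 0.45 ± 0.06 (limma adjusted p = 0.000164), without overlap. In the F1 part, 3 of the 5 genes fell as deposited. With quantile normalization or centring on the brightest 25% 2 fell, and 4 when centred on the median of all genes. Atp5d and Atp5e, the delta and epsilon subunits of the central stalk, fell by 0.45 and 0.31. Atp5a1, the alpha subunit, fell by 0.15, the smallest called difference of all, and its call was lost in each of the 6 fits that left out a control or a double-mutant array (adjusted p 0.0605 to 0.139, limma). The catalytic beta subunit Atp5b was not called at -0.06 (limma adjusted p = 0.452). The calls of Atp5k, Atp5j2, Atp5d and Atp5e held under all 4 scalings.

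Outside the complexes, Cox4nb fell by 0.39 and Atp5sl by 0.23, while Atp5s was not called at -0.06 and lay below the floor at 3.44. Cox4nb, now Emc8, belongs to a complex that inserts proteins into the endoplasmic reticulum membrane, and its call was lost without control replicate 3 (adjusted p = 0.0696) or double-mutant replicate 3 (0.0708, limma). Both calls were lost under quantile normalization. The 50 genes of the whole set that were not called differed by -0.46 to 0.17.

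Promoters are shown for genes with the largest changes, because the same regulators are known to act on many genes of this pathway. RefSeq promoter windows of GRCm38.p6, from 250 bases before to 50 after the annotated start, were found for 67 of the 83 genes. Those below belong to the called genes with the 2 largest falls and the 2 largest rises that had a window. Capitals mark matches, on either strand, to CGCATGCG (the core of the site of NRF1, a regulator of respiratory chain genes), AAGATGGC (YY1) or CCGGAAG (ETS factors such as NRF2), and no match overlaps another in these windows.
Atp5k promoter, chr5:108434350-108434649, minus strand: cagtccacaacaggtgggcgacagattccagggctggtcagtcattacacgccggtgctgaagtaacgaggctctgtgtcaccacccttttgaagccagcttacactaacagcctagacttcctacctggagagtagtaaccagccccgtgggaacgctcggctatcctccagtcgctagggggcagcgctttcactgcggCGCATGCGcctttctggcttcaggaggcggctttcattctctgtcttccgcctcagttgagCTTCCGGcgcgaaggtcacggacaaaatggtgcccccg
Ndufb3 promoter, chr1:58586147-58586446, plus strand: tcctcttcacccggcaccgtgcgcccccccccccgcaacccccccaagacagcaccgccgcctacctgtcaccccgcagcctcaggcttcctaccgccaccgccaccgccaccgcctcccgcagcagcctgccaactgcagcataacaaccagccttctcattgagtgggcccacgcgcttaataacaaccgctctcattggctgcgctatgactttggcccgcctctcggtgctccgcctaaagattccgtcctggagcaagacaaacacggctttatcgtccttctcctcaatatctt
Atp5g3 promoter, chr2:73911277-73911576, minus strand: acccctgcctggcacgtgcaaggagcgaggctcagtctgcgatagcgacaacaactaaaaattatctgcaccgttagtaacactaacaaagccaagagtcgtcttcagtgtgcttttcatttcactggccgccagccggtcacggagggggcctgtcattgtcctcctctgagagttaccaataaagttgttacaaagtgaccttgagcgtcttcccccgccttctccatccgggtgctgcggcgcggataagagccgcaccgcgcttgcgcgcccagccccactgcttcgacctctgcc
Uqcrc1 promoter, chr9:108936398-108936697, plus strand: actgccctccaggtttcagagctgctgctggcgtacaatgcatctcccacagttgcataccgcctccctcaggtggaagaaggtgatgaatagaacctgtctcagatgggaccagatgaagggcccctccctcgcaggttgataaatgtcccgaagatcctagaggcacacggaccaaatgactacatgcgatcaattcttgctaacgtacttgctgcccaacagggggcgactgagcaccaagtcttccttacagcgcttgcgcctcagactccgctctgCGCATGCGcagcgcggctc
Atp5k held an NRF1 and an ETS match near its start, Uqcrc1 an NRF1 match, and Ndufb3 and Atp5g3 none of these letters in the window. The NRF1 letters were in 10.4% of the 67 windows and 1.91% of 27025 windows of all genes, those of YY1 in 14.9% and 2.88%, and those of ETS in 22.4% and 9.12%. Of the 23 windows of genes that fell, 3 held the NRF1, 6 the YY1 and 7 the ETS letters. Of the 3 windows of genes that rose, 1 held the NRF1, 0 the YY1 and 1 the ETS letters. CpG dinucleotides numbered 19 in Atp5k, 22 in Ndufb3, 21 in Atp5g3 and 15 in Uqcrc1, with medians of 19 over the 67 windows and 7 over all. A match of letters is a description and no evidence of binding.

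Neither single mutant changed any of the 83 genes by limma at an adjusted p below 0.05. In the Ring1 mutant, 0.771% of all genes were called in either direction, the smallest adjusted p among the 83 genes was 0.11, and 7 had an unadjusted p below 0.05. This was 8.43% of them, against 10.7% of all genes. Their differences ran from -0.31 (Ndufa4l2) to 0.34 (Ndufb10). In the Rnf2 mutant, 0.139% of all genes were called, the smallest adjusted p was 0.421, and 3 genes (3.61%) had an unadjusted p below 0.05, against 6.68% of all genes. Differences there ran from -0.13 to 0.29 (Ndufb10). With a variance trend on intensity, 1 gene, Ndufb10, was called in the Ring1 mutant. Cox8c, the gene with the largest rise in the double mutant, differed by -0.28 ± 0.12 in the Ring1 mutant and by 0.01 ± 0.12 in the Rnf2 mutant. Atp5g3 differed by -0.08 and 0.14, and Atp5k by -0.06 and 0.03.

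The double mutant was also set against each single mutant, which asks what the second loss adds. Against the Ring1 mutant, 5 of the 83 genes were higher and 20 lower, against 15.0% and 16.7% of all genes. Against the Rnf2 mutant, 4 were higher and 24 lower, against 14.0% and 16.3% of all genes. Markers of other cells moved in this comparison too. All 5 theca and luteal markers were called lower in the double mutant than in the Rnf2 mutant, whose arrays had list means of 4.64 to 5.37 against 3.32 to 4.41. Of the 14 granulosa and cumulus markers, 4 were lower and 2 higher, with list means of 4.95 to 5.13 in the Rnf2 mutants and 4.52 to 4.96 in the double mutants. Their part in these calls was not tested. Complex I, with 36 of the 83 genes, held 13 of the 20 and 15 of the 24 lower calls. The brightest 25% of genes had a median difference of -0.10 against the Ring1 mutant and -0.10 against the Rnf2 mutant. For all genes the medians were -0.05 and -0.03. The shares called among the brightest 25% are not given for these comparisons, and an excess over other abundant transcripts was not tested. These comparisons and that with control share the double-mutant arrays, so their calls are not independent. The share of all genes called in all 3 was not counted, so the joint counts have no background. Cox8c, Atp5g3 and Ndufb7 were higher in all 3. Called lower in all 3 were 17 genes, among them Ndufa7, Ndufa9, Ndufab1, Ndufb2, Ndufb3, Ndufb5, Ndufb11, Ndufs3, Ndufs6, Ndufs7, Cox5b, Cox6a2, Atp5e, Atp5j2, Atp5k and Atp5sl. Cox8c was 1.87 ± 0.12 higher than in the Ring1 mutant and 1.58 ± 0.12 higher than in the Rnf2 mutant, on the log2 scale (limma adjusted p = 1.39e-07 and 6.9e-07). Of complex II, only Sdha was called in these comparisons, against the Rnf2 mutant. Ndufa11 was higher against the Rnf2 mutant alone (0.18, adjusted p = 0.0483, limma), a call lost in each of the 6 fits without one of those arrays.

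Whether losing Rnf2 acted differently with and without Ring1 was tested as the interaction, the Rnf2 effect in Ring1-/- oocytes minus that in Ring1+/+ oocytes. It was positive and called for 2 genes and negative and called for 18, against 10.0% and 9.03% of all genes. Complex I, with 36 of the 83 genes, held 12 of the 18. The median interaction was -0.04 for all genes and -0.09 for the brightest 25% of genes, where 70 of the 83 lie. The share of that brightest 25% with a called interaction is not given here. Whether the negative calls exceed those of other abundant transcripts was therefore not tested. Without one of the arrays, 2 genes stayed positive and between 8 and 15 were negative. The count fell to 8 without Rnf2-mutant replicate 2, to 10 without control replicate 1 or double-mutant replicate 2, and to 11 without control replicate 2 or Ring1-mutant replicate 2. The positive genes were Cox8c at 1.86 ± 0.17 (limma adjusted p = 7.64e-06) and Atp5g3 at 0.81 ± 0.13 (adjusted p = 0.000986). The most negative were Ndufb3 at -0.67 ± 0.14 (adjusted p = 0.00422) and Atp5k at -0.61 ± 0.11 (adjusted p = 0.00182, limma).

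**Figure D5:**
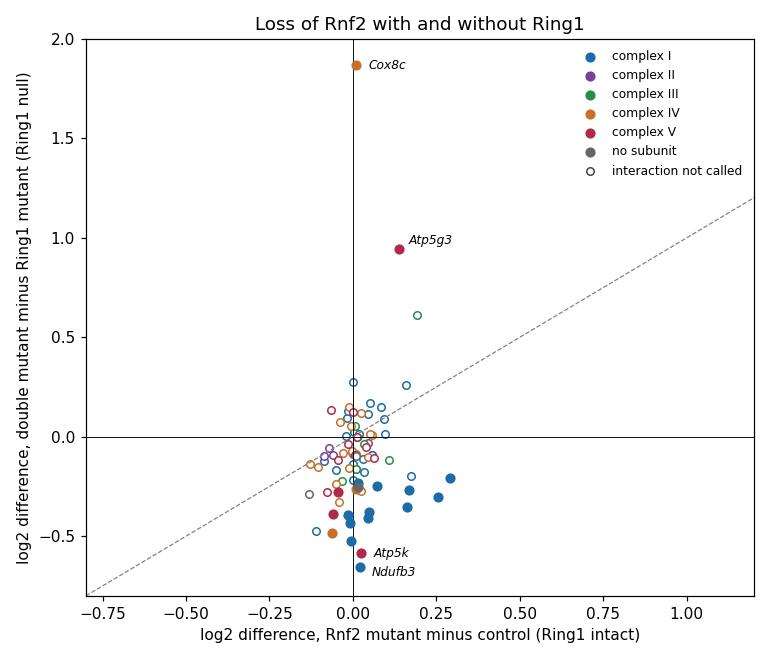
Log2 difference after loss of Rnf2 with Ring1 intact (horizontal axis, Rnf2 mutant minus control) and without Ring1 (vertical axis, double mutant minus Ring1 mutant), 1 point per gene, 3 arrays per genotype; filled points had a called interaction and the dashed line marks equal differences. Horizontal values stay between -0.13 and 0.29, while vertical values reach 1.87 for Cox8c.

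For some complex I genes the interaction came from the single mutants as much as from the double. Ndufs6 read 8.66, 8.69 and 8.64 in the controls, 8.78, 8.80 and 8.86 in the Ring1 mutants, 8.81, 8.88 and 8.79 in the Rnf2 mutants and 8.48, 8.46 and 8.44 in the double mutants. Both single mutants lay above the controls and the double mutants below them, with no overlap. The differences from control were 0.15 and 0.16 in the single mutants, not called, and -0.20 in the double mutant, and the interaction was -0.52 ± 0.08 (limma adjusted p = 0.000553). Ndufb10 read 7.53, 7.72 and 7.67 in the controls, 7.88, 8.01 and 8.06 in the Ring1 mutants, 7.90, 8.08 and 7.82 in the Rnf2 mutants and 7.77, 7.84 and 7.72 in the double mutants. The double mutants overlapped the controls at their lower end and the Rnf2 mutants at their upper end. Its interaction was -0.50 ± 0.12 (limma adjusted p = 0.0108). Ndufb10 and Ndufa7 lie on chromosome 17 within 10 Mb of Ring1, so an effect of the alleles linked to the Ring1 mutation cannot be told apart from that of Ring1. Ndufa3 and Ndufc1 had interactions of -0.56 and -0.44, with differences of 0.16 and 0.21 in the Ring1 mutant and 0.26 and 0.17 in the Rnf2 mutant, none of them called.

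Other genes of mitochondrial energy metabolism were counted on lists made with earlier results of these data known, and all counts are for the double mutant against control, where 14.5% of all genes rose and 17.5% fell. A list of 6 electron carriers and subunits outside the chosen names, among them the cytochromes Cyc1 (0.16) and Cycs (-0.08), had 0 genes called by limma as deposited. On it, 1 gene had an unadjusted p below 0.05. With quantile normalization or centring on the brightest 25% 1 was higher, and centred on the median of all genes 1 was lower. That list does not hold Uqcr10, a complex III subunit that fell by 0.40, or Ndufa11b, which rose by 0.30. Of the 7 subunits encoded by mitochondrial DNA that were measured, 0 were called by limma as deposited and 0 had an unadjusted p below 0.05. COX1 differed by 0.06 and CYTB by -0.02. COX2 was called higher with quantile normalization and when centred on the brightest 25% (adjusted p = 0.0328 and 0.0249, limma). ND3 was called lower when centred on the median of all genes (adjusted p = 0.0419, limma). Factors that assemble complexes III to V rose in 1 and fell in 6 of 24 genes as deposited, in 3 and 11 with quantile normalization, in 4 and 4 when centred on the brightest 25%, and in 0 and 15 when centred on the median of all genes. Among them, Cox14, needed for the synthesis of a core subunit of complex IV, fell by 1.04, and Surf1, needed for its early assembly, by 0.76. Cox10, which acts in a step of making the heme of that complex, fell by 0.50. On a list of 8 complex I assembly factors, 1 rose and 2 fell, with Tmem126b up by 0.41. Of the 2, 1 is Atp5sl (Dmac2), already among the 83 genes. Centred on the brightest 25% 1 rose and 0 fell, and centred on the median of all genes 1 and 3. Ndufaf3 and Ndufaf4, which that list does not hold, fell by 0.50 and 0.38. Regulators of mitochondrial biogenesis rose in 4 and fell in 4 of 15 as deposited. The counts were 4 and 3 with quantile normalization and 6 and 3 when centred on the brightest 25%. Centred on the median of all genes they were 2 and 6. Yy1 rose by 1.07 ± 0.09 (limma adjusted p = 1.56e-06), while the mitochondrial RNA polymerase Polrmt fell by 0.94 and the mitochondrial helicase Twnk by 0.78.

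Supply and exchange pathways also moved in both directions. Of the tricarboxylic acid cycle and pyruvate dehydrogenase list, 3 of 23 rose and 7 fell as deposited, but 8 rose and 5 fell when centred on the brightest 25%, and 3 and 12 when centred on the median of all genes. Mpc1, a part of the mitochondrial pyruvate carrier, fell by 1.07, and Pdk2, a kinase that switches pyruvate dehydrogenase off, rose by 0.95. Of 21 glycolysis genes, 6 rose and 2 fell: Ldha, which interconverts pyruvate and lactate, rose by 1.49 and Pgk1 by 0.54, and Pfkm fell by 0.77. Centred on the brightest 25%, 9 glycolysis genes rose and 2 fell, and centred on the median of all genes, 3 and 4. Of 9 adenine nucleotide carriers and uncoupling proteins, 4 rose and 1 fell as deposited. With quantile normalization or centring on the brightest 25% 4 rose and 0 fell, and centred on the median of all genes 3 and 2. Slc25a4 and Slc25a5, which exchange ADP for ATP across the inner membrane, rose by 0.71 and 0.64. On a list of 8 genes made for mitochondrial antioxidants, 2 rose and 2 fell, with Glrx2 up by 1.90 and Prdx3 down by 1.13. That list also holds the aldehyde oxidase gene Aox1, which lay below the floor at 2.65 and was not called. Its counts were 3 and 2 when centred on the brightest 25% and 1 and 3 when centred on the median of all genes. On these lists, Atp5sl lost its call under quantile normalization and when centred on the brightest 25% (adjusted p = 0.0831 and 0.141, limma). All other genes named as changed on them were called in the same direction under all 4 scalings. Mpc1, Prdx3 and Twnk were also lower in the Ring1 mutant, at -0.59, -0.80 and -0.54.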

How the data were processed

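Gene expression was measured on 12 whole-transcript arrays of germinal vesicle oocytes, 3 per genotype, grouped by the genotype in the labels. Per the labels' protocols, RNA of 50 oocytes per sample was amplified by a whole-transcriptome PCR kit before labelling. The deposited table gives 1 log2 intensity per probe set and array. Processing ran in R 2.10.0 with affy, per the submitters' processing notes; the sources used here do not give the background correction, normalization or summarization.

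Of 34760 probe sets, 23279 named a single gene in the authors' annotation, 1332 several and 10118 none, and 31 were not listed there. The probe set with the highest mean stood for each of 21519 genes. Current names and chromosomes came from a RefSeq table of GRCm38.p6, matched by gene number (20083), accession (158), symbol (891) or older symbol (615), and 1532 kept the annotation's name. The sources used here do not name the array's own build. The floor is the 95th percentile of 1043 olfactory receptor genes.

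One mean per genotype was fitted to all arrays with limma 3.58.1 (lmFit, eBayes) in R 4.3.3, with Benjamini-Hochberg adjustment over all genes in each of 6 comparisons: the double and each single mutant against control, the double against each single mutant, and the interaction. The fit was tested on simulated data. The labels do not say what a replicate number stands for. Over genes above the floor, deviations from the group mean correlated at 0.10, 0.26 and 0.15 in the same-numbered control and double-mutant arrays. In each other pair of genotypes at least 1 same-numbered pair lay below 0.1. Over all genotypes the median was -0.0033 for same and -0.0066 for different numbers, and different numbers reached 0.20. The main fit was unpaired, and the replicate block was used only in alternatives. The members and lists were chosen with earlier results of these data known. Named genes are those called in any comparison, the 2 highest-mean genes per complex, tissue-restricted isoforms, and, for other lists, up to 3 called genes with the smallest adjusted p or, where none was called, the 2 with the highest mean. Genes named outside that rule (uncalled members of a complex beside called ones) were chosen after their values were seen. Values of some genes within it are not reported here. Alternatives covered scaling, probe set choice, a filter at the floor, variance models, a fold threshold, a replicate block, genes linked to Ring1 or Rnf2, and fits without one array. Precision is limited by the number of arrays.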

Additional observations from a re-analysis of the deposited data

Results flagged for a closer look

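The values below stood out because the effect of losing Rnf2 differed with the Ring1 genotype in a limma test of the difference itself (the interaction, at an adjusted p below 0.05), with the effect in Ring1-/- oocytes minus that in Ring1+/+ oocytes on the log2 scale. Among the complex I genes listed, the interaction was -0.67 for Ndufb3, -0.56 for Ndufa3, -0.52 for Ndufs7, -0.52 for Ndufs6, -0.50 for Ndufb10, -0.45 for Ndufab1, -0.44 for Ndufc1, -0.43 for Ndufa7, -0.42 for Ndufb5, -0.38 for Ndufb11 and -0.25 for Ndufa9. In complex IV it was 1.86 for Cox8c, -0.42 for Cox6a2 and -0.27 for Cox7b. In complex V it was 0.81 for Atp5g3, -0.61 for Atp5k, -0.33 for Atp5j2 and -0.23 for Atp5e, and for Atp5sl, which is no subunit, -0.27. Ndufa7 and Ndufb10 lie within 10 Mb of Ring1. No group had the 4 arrays that a test for single outlying arrays needs.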

How the results depend on the processing

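For each of the 39 genes called in any comparison, 1 comparison was followed, that with control where it was called there, and its sign was the same under the alternatives run. Against control, where they were not called, Ndufc1 (-0.06) and Cox7b (-0.11) turned to 0.05 and 0.0063 when centred on the brightest 25%. Of the 39, 6 kept their call under every alternative and 22 in every fit that left out one array. Against control, counts of higher and lower genes (5 and 28) became 3 and 45 when centred on the median of all genes, 18 and 13 when centred on the brightest 25%, 14 and 17 with quantile normalization, 10 and 35 with a variance trend and 2 and 4 beyond 1.2-fold; leaving out one array gave 3 to 5 and 18 to 27, lowest for higher genes without double-mutant replicate 1 (3) and for lower genes without control replicate 3 (18). Against the Ring1 mutant (5 and 20) the same settings gave 3 and 50, 12 higher, 14 higher, 11 and 31, and 2 and 2, and leaving out one array 4 to 5 and 19 to 24. Against the Rnf2 mutant (4 and 24) they gave 2 and 53, 12 and 14, 10 higher, 37 lower, and 2 and 3, and leaving out one array 2 to 4 and 16 to 24, with 2 higher without Rnf2-mutant replicate 3 or double-mutant replicate 1. For the interaction (2 and 18), centring on the brightest 25% gave 4 and 8, quantile normalization and a variance trend 4 higher, the 1.2-fold test 1 lower, and leaving out one array 2 and 8 to 15. The variance trend called 1 gene in the Ring1 mutant, and no fit without one array called any in a single mutant. The cause of these shifts was not tested, beyond fewer arrays or a fold requirement by construction.

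With the number as a replicate block, 5 and 26 genes were called against control, 5 and 21 against the Ring1 mutant, 3 and 25 against the Rnf2 mutant, and 2 and 13 for the interaction. With the replicate block and only control and double-mutant arrays, chosen after seeing the data, the counts were 4 and 17, and without the block in those arrays 5 and 20. Adding the 14 genes named by current symbol, chosen after seeing the data, gave 6 and 34 against control. Changes in genes near the floor are compressed.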

Other observations

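The array's annotation names some genes of these complexes by older symbols, so that the choice by name missed them. Of 14 such genes, 6 were called lower and 1 higher by limma in the double mutant, against 17.5% and 14.5% of all genes. Sdhaf1, Sdhaf3 and Sdhaf4, assembly factors of complex II, fell by 0.30, 0.53 and 0.59. Ndufaf3 and Ndufaf4, assembly factors of complex I, fell by 0.50 and 0.38, and Uqcr10, a small subunit of complex III, by 0.40. Ndufa11b rose by 0.30. Sdhaf2, which attaches the flavin to Sdha, was not called at 0.08, nor was the complex I subunit Ndufv3 at -0.09.

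Of the 83 genes, 12 had several probe sets naming them alone. For Cox7c the probe set used gave a difference of -0.05 between double mutant and control and the other gave 0.42. For Atp5h the probe set used gave 0.00 and the others 0.03 and 0.24. For Uqcrb the values were -0.01, 0.15 and -0.01. For Ndufs3 (-0.20 and -0.33) and Uqcr (-0.22 and -0.32) the probe sets moved in the same direction.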
